A study of Mus musculus with 12 samples.

Results

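The genes described here are 10 mRNAs of the mouse hypothalamus, namely 8 markers of microglia (Cx3cr1, P2ry12, Tmem119, Csf1r, C1qa, C1qb, Aif1 and Trem2) together with Lag3 and Ccr2. They were chosen by gene symbol and make up 10 of the 27308 gene symbols on the array. They are covered by 13 of its 56605 probes, with 2 probes each for Cx3cr1, Csf1r and Lag3 and 1 probe for every other gene. Hypothalamic total RNA of male mice was hybridised to Agilent 1-colour arrays, 3 arrays in each of 4 groups. The WT group held wild-type littermates that did not swim, and the KO group held homozygous Asmt knockout mice that did not swim. The wild-type exercise group, called exercised WT here, and the Asmt knockout exercise group, KE, were trained in swimming. All mice came from a C57BL/6 line, and their age is labelled as 6 to 7 weeks. The methods give that age for the start of swimming, which ran for 1 week of adaptation and 4 weeks of regular training. The knockout carried a 20 bp deletion made with Cas9 in zygotes, and the founders with that deletion were backcrossed to wild-type littermates. Asmt encodes the last enzyme of melatonin synthesis and is mainly a pineal gene. The array's Asmt probe was not well above background on any of the 12 arrays, so these arrays cannot check the genotype. Nothing in the labels says whether each sample came from 1 mouse, so p-values measure only the spread between these samples.

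Microglia are the resident macrophages of the brain. They sense neuronal signals through the fractalkine receptor Cx3cr1 and the ADP receptor P2ry12, depend on Csf1r for survival, and supply C1q, the recognition molecule of the classical complement cascade, to the tissue. Lag3 is an inhibitory immune receptor that binds class II antigen-presenting molecules on other cells and the secreted protein Fgl1. It is best known from activated T cells and has also been described in brain cells. Ccr2 is the receptor for the chemokine Ccl2 and marks inflammatory monocytes, while resident microglia express little of it.

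The Lag3 probes are shown first because Lag3 ranked first by p among the 10 genes in KE versus exercised WT and in the interaction. Each line is the 60-base probe as deposited, 5′ to 3′, in lower case.
Lag3 brighter probe: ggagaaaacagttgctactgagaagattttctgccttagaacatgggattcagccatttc
Lag3 dimmer probe: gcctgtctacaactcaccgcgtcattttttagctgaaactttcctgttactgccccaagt
In the deposited mm9 coordinates the brighter probe lay on the minus strand at chr6:124854570-124854866. Its 60 bases were spread over 297 bp of genome, so it crossed a splice junction. The dimmer probe lay upstream in the gene at chr6:124859333-124859392, within 60 bp. Each had at least 1 reading frame free of stop codons, 2 for the brighter probe and 1 for the dimmer one. The probes therefore lie at separate places in the gene. Their place in the exons of the Lag3 transcript was not tested.

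All 8 microglia markers were detected well above background on all 12 arrays. Csf1r had the highest mean normalized log2 signal of the 8 (13.55, at the 93.4th percentile of tested probes), and P2ry12 the lowest (8.96, at the 55.6th percentile). The signals of different probes are set by probe chemistry as well as by RNA, so these levels rank probes and not transcripts. The brighter Lag3 probe was detected on 12 of 12 arrays at a mean of 6.67, which is the 29.6th percentile of tested probes. The dimmer Lag3 probe was detected on 4 arrays and the Ccr2 probe on 3. All 10 genes passed the detection filter, under which a probe was kept if every array of any one group read it well above background. Ccr2 and the dimmer Lag3 probe passed it through the exercised WT group alone, which favoured a higher mean there, so their differences from that group are descriptions. The call also differed by array. The lowest signal called well above background was 3.67 on exercised WT replicates 2 and 3, and 3.75 to 4.51 on the other arrays. Detection in exercised WT alone is therefore partly a matter of where each array set its call.

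The 12 arrays came from 2 slides. WT replicates 1 to 3 and KO replicates 1 and 2 were on slide 1, and KO replicate 3 with all exercised WT and KE arrays was on slide 2. The first principal component held 48.5% of the variance over all arrays and separated the slides, with KO replicate 3 at -40.2 among the slide 2 arrays. KE versus exercised WT lay wholly within slide 2. The comparisons of swimming with no swimming crossed the slides, and their main differences are therefore also given with slide as a block. In that fit the slide effect is estimated from KO replicate 3 against the other KO arrays alone. Each difference between swimming and no swimming within a genotype therefore rests on that 1 array. The array cancels out of the interaction, whose slide block fit is the same as leaving that array out. In bulk tissue, fewer cells of a type and less RNA per cell cannot be told apart.

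In mice that swam, Lag3 ranked first by p among the members between the genotypes. With the brighter probe, the 3 exercised WT arrays read 6.96, 6.80 and 6.90 and the 3 KE arrays read 6.24, 6.41 and 6.42. The WT arrays read 6.87, 6.63 and 6.61, and the KO arrays 6.73, 6.85 and 6.59. Every KE array lay below all 9 others, and the exercised WT arrays reached above the WT and KO arrays at their upper end. The mean was 0.54 lower in KE than in exercised WT on the log2 scale (SE 0.09, 95% interval -0.75 to -0.33, 3 arrays each), a 1.45-fold difference. By limma the probe ranked 17 of 35230 probes tested, and the Benjamini-Hochberg adjusted p was 0.349. The difference is therefore larger than the spread between arrays for this probe, but it did not pass adjustment over the whole array. Leaving out any 1 array kept the difference between -0.58 and -0.48 and the adjusted p between 0.21 and 0.785. The size depended more on the background correction, at -0.34 with normexp, which added an offset of 50 to every signal before taking logs. The part of the offset in this smaller size was not tested.

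**Figure D1:**
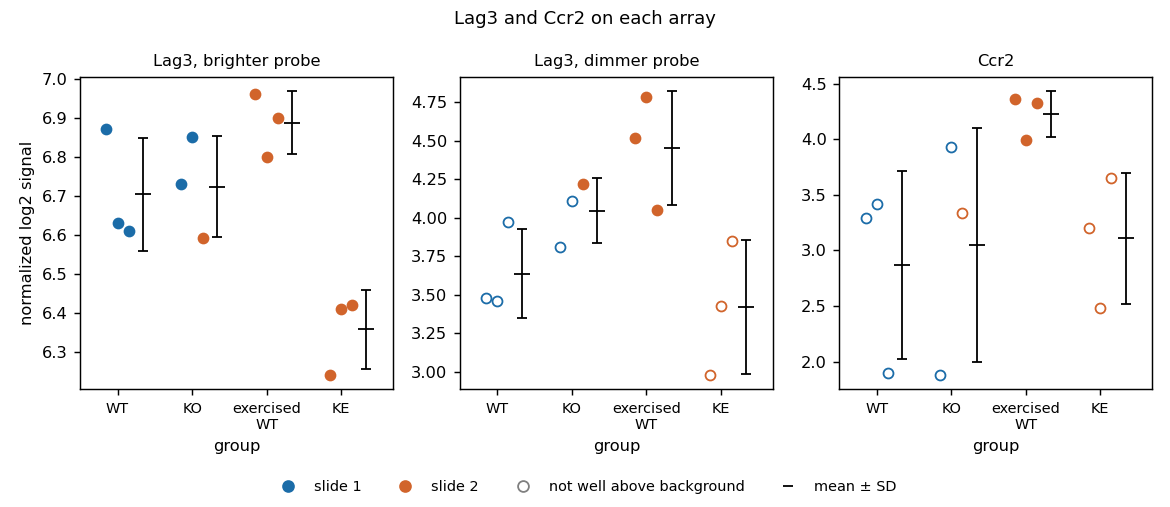
Normalized log2 signal (y axis, each panel with its own scale) of both Lag3 probes and of Ccr2 on each of the 12 arrays, by group (x axis). Filled points were well above background and open points were not, colour gives the slide, and bars are the mean ± SD of 3 arrays. The 3 KE arrays lie at 6.42 or below for the brighter Lag3 probe, and the 3 exercised WT arrays are the only filled points for Ccr2.

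The dimmer Lag3 probe, kept through exercised WT alone, adds no independent evidence on the order of the groups. It read 4.52, 4.78 and 4.05 in exercised WT and 2.98, 3.43 and 3.85 in KE, and these did not overlap. It read 3.48, 3.46 and 3.97 in WT and 3.81, 4.11 and 4.22 in KO. The probe was well above background on all 3 exercised WT arrays and on KO replicate 3, and on none of the WT and KE arrays. Taking the dim group at its detection limit, the signal was at least 1.21-fold higher in exercised WT than in KE and at least 1.15-fold higher than in WT. Across the 12 arrays the 2 Lag3 probes correlated at r = 0.64, given as a description.

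Over all members, KE versus exercised WT gave 0 of 10 genes with an adjusted p under 0.05 (background 0% of 35230 probes) and 0 of 10 past the study's screening criterion of a 2-fold change with an unadjusted p of at most 0.05 (background 0.25%). At an unadjusted p under 0.05, 1 of 10 genes was called, Lag3 (background 6.71%). For 4 of 10 genes the KE and exercised WT arrays did not overlap, namely Lag3, Ccr2, Trem2 and Tmem119, all lower in KE (background 19.6% in either direction). Ccr2 is among the 4 only through the filter described above. Trem2, a lipid-sensing receptor of microglia, read 10.88, 10.99 and 10.98 in KE and 11.18, 11.04 and 11.11 in exercised WT. Its mean was 0.16 lower in KE (95% interval -0.32 to 0.00, limma adjusted p = 0.748). Tmem119, a membrane protein of mature microglia, was 0.10 lower in KE (adjusted p = 0.819). Over the 8 microglia markers the median log2 fold change was -0.10, against -0.01 over all tested probes. With normexp background correction this median was smaller in size, as given with the alternatives below. The 8 individual values lay between -0.16 and 0.07, and their 95% intervals between -0.35 and 0.47.

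Ccr2 was listed well above background in exercised WT and nowhere else, though replicates 2 and 3 of that group called lower signals than any other array. It read 4.36, 3.99 and 4.33 in exercised WT, against 3.29, 3.42 and 1.90 in WT, 1.88, 3.93 and 3.34 in KO and 3.20, 2.48 and 3.65 in KE. The exercised WT arrays were the 3 highest of the 12, as the filter favoured. The fitted difference was 1.36 (SE 0.55) for exercised WT versus WT, or 0.92 with slide as a block, and -1.12 for KE versus exercised WT. These fitted values rest on signals under background. Against the detection limit the signal was at least 1.03-fold higher in exercised WT than in KE, and no fold could be given against WT, whose limit (4.26) lay above the exercised WT mean (4.23). Leaving out 1 array moved the exercised WT versus WT difference between 0.87 and 1.63.

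Genes related to Ccr2 were measured as well. The chemokine receptor gene Ccr3 was not well above background on any array. The Ccr2 ligand genes Ccl2, Ccl12 and Ccl8 were tested and none had an unadjusted p under 0.05 in KE versus exercised WT. Ccl8 differed most in that comparison, by -0.94 (adjusted p = 0.816), with 1 of 3 KE arrays well above background, and Ccl7 did not pass the detection filter.

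For monocytes and neutrophils, whose signals were read beside Ccr2, 14 of 17 listed genes were tested. The most abundant were Ly6c1 (mean 13.25), Ly6c2 (13.20) and Lyz2 (11.30), and Ly6c1 is also an endothelial gene. Summed over the 14 probes, the linear signal ran from 22490 to 26900 in exercised WT, 21075 to 25687 in WT, 20333 to 32512 in KO and 21501 to 24932 in KE, so the groups overlapped. The mean log2 signal of the list ran from 8.0 to 8.37 in exercised WT and from 7.37 to 7.71 in WT, which did not overlap. It ran from 6.76 to 8.15 in KO and from 7.55 to 8.26 in KE, and the KE arrays overlapped those of exercised WT. In exercised WT versus WT, 3 of the 14 had an unadjusted p under 0.05, all higher (background 25.9%), and the list's median of 0.41 became 0.03 with slide as a block. Ltf, a neutrophil granule gene, was the 1 past the screening criterion there. It passed the detection filter through exercised WT alone, with 1 of 3 WT arrays well above background, and its fitted difference of 2.04 became -0.38 with slide as a block. Ccr1, Cxcr2 and Ngp did not pass the detection filter. The part of blood-borne cells in the Ccr2 signal was not tested.

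For T and NK cells, the classical Lag3-bearing cells, 14 of 20 listed genes were tested. Cd8a, Cd3g, Gzmb and Ncr1 were among the 6 that did not pass the detection filter, while Cd3e was at 7.48 and Klrb1c, the brightest, at 10.91. The list's mean log2 signal was 6.81 ± 0.23 in exercised WT and 6.78 ± 0.03 in KE (SD, n = 3). In KE versus exercised WT, 1 of the 14, the perforin gene Prf1, had an unadjusted p under 0.05. It passed the detection filter through KE alone, which favoured a higher mean there, and 1 of 3 exercised WT arrays read it well above background, so no size is given. The list's median was -0.01, equal to that of all tested probes, beside -0.54 for Lag3. The 4 genes next to Lag3 in the RefSeq gene order (GRCm38.p6), Gpr162, Cd4, Ptms and Mlf2, were all detected on 12 of 12 arrays. They differed by 0.02, 0.31, 0.03 and -0.02 in KE versus exercised WT, with limma adjusted p of 0.986, 0.861, 0.938 and 0.967.

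Among the Lag3 ligands, the 7 class II genes were all tested and 0 had an unadjusted p under 0.05 in KE versus exercised WT. H2-Eb1, H2-Ab1 and Cd74 were the brightest, and Cd74, the invariant chain, differed by -0.59 (adjusted p = 0.786). The list's median was -0.29, with no gene past any threshold. Fgl1 was 1.18 higher in exercised WT than in WT (adjusted p = 0.0953) and 0.06 higher in KE than in exercised WT (adjusted p = 0.991). It was the 1 of the 20 tested ligands and partners past the screening criterion, and the difference became -0.25 with slide as a block. The ligand genes Cx3cl1, Csf1 and Il34, which act on Cx3cr1 and Csf1r, differed by -0.04, -0.03 and -0.07 in KE versus exercised WT.

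Whether swimming acted differently in the 2 genotypes was tested as an interaction, the change KE minus KO less the change exercised WT minus WT. For Lag3 it was -0.55 (SE 0.13, 95% interval -0.85 to -0.26, limma adjusted p = 0.477), rank 136 of 35230, and -0.62 with slide as a block (adjusted p = 0.277). It was -0.33 with normexp background correction. The Lag3 mean was 0.37 lower in KE than in KO (adjusted p = 0.14) and 0.18 higher in exercised WT than in WT (95% interval -0.03 to 0.40, adjusted p = 0.241), where the arrays overlapped. With slide as a block these were -0.24 and 0.38. Of the 10 members, 0 passed at an adjusted p under 0.05 (background 0%), 0 passed the screening criterion (background 0.602%) and 1, Lag3, had an unadjusted p under 0.05 (background 7.76%). With slide as a block, 4 had one, as Csf1r, C1qa and Trem2 joined Lag3 (background 10.9% in that fit). The 8 marker values lay between -0.16 and 0.17, with a median of -0.14 against -0.01 for all tested probes. That median too was smaller in size with normexp, as given with the alternatives below.

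A wider list of microglial genes was read beside the members. Of its 30 genes, 28 were tested, and Csf3r, Ctss and Siglech were the brightest. In KE versus exercised WT, 4 had an unadjusted p under 0.05, all lower in KE, a share of 14.3% against 6.71% of all probes, and the median was -0.12. The 4, named after their values were seen, were Ctss, a lysosomal protease (-0.26), Inpp5d, an inositol phosphatase (-0.28), the Fc receptor Fcgr3 (-0.21) and the nucleotide receptor P2ry6 (-0.18). Genes higher in KE, none at an unadjusted p under 0.05, included Siglech (0.48), Cd33 (0.37), Ptprc (0.27) and Itgam (0.24). The list's summed linear signal ran from 106189 to 109200 in KE and from 101015 to 108913 in exercised WT, which overlapped. In the interaction, 4 of 28 had an unadjusted p under 0.05 as well, all negative, namely Ctss (-0.44), Fcgr3 (-0.40), P2ry6 (-0.30) and the phagocytic receptor Mertk (-0.60), against a background of 7.76%. Siglech (0.27) and Cd33 (0.54) were positive there without reaching it. In the comparisons that crossed the slides the directions were different, with 4 higher and 3 lower of 28 in KE versus KO (background 21.1%) and 6 higher and 0 lower between exercised WT and WT (background 25.9%). KO versus WT had 1 higher and 0 lower (background 5.47%). None passed at an adjusted p under 0.05 in either. Among 19 tested genes of microglial activation, the costimulatory gene Cd86 was the 1 with an unadjusted p under 0.05 in KE versus exercised WT (-0.36, adjusted p = 0.647). The complement receptor C3ar1 was the 1 among the ligands and partners (adjusted p = 0.562). C3ar1 passed the detection filter through exercised WT alone, was not well above background on any KE array and was at least 1.33-fold higher in exercised WT. Havcr2, the checkpoint receptor known as Tim-3, was the 1 among 4 tested checkpoint receptors (-0.32, adjusted p = 0.661), and its interaction was -0.57 (adjusted p = 0.479). In the same list Btla, an inhibitory receptor of lymphocytes, had an interaction of 0.68 (adjusted p = 0.523), the opposite sign. Pdcd1, Ctla4 and Tigit, checkpoint receptors of T cells, were not well above background on any array. Among the 10 tested genes of border macrophages, which line vessels and meninges, 3 were lower in KE than in exercised WT at an unadjusted p under 0.05, namely Lyve1, Ms4a7 and Cd209f. Lyve1 was not well above background in KE and was at least 1.52-fold higher in exercised WT, and Cd209f was bounded in the same way at 1.22-fold. Both passed the detection filter through exercised WT alone, which favoured that direction, while Ms4a7 was detected on 12 of 12 arrays.

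**Figure D2:**
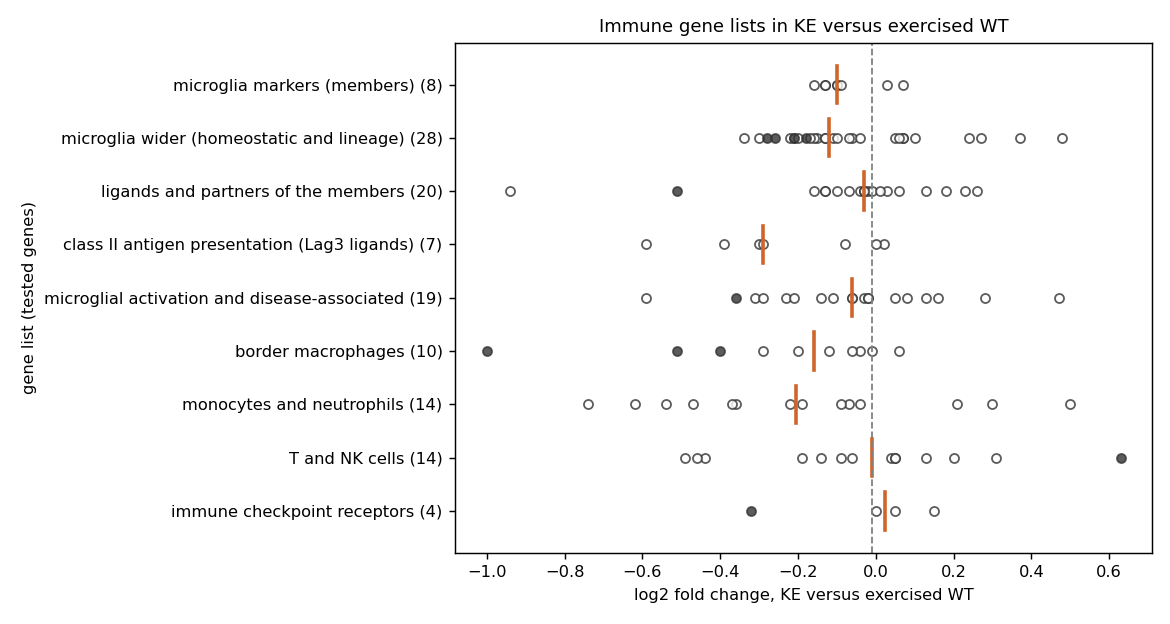
Log2 fold change of KE versus exercised WT (x axis) for each tested gene of the 9 immune gene lists (y axis, number of tested genes in brackets), where filled points have an unadjusted limma p under 0.05, the vertical bar is the list's median and the dashed line is the median of all tested probes at -0.01. The wider microglia list has its median at -0.12 and all 4 of its filled points to the left of the line.

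In mice that did not swim, the members called between the genotypes were about as frequent as over the whole array. KO versus WT gave 0 of 10 members at an adjusted p under 0.05 (background 0%), 0 past the screening criterion (background 0.227%) and 1 at an unadjusted p under 0.05 (background 5.47%). That gene was Cx3cr1, which read 12.41, 12.45 and 12.49 in WT and 12.36, 12.23 and 12.34 in KO. It was also the 1 member whose groups did not overlap (background 8.63%). Its mean was 0.14 lower in KO (SE 0.06, 95% interval -0.27 to -0.01, limma adjusted p = 0.846), and 0.15 lower within slide 1, where KO had 2 arrays. The dimmer Cx3cr1 probe was lower by the same 0.14 (adjusted p = 0.846) and its groups did not overlap either. The brighter probe was not below that unadjusted threshold with 75th percentile scaling or without WT replicate 2, WT replicate 3 or KO replicate 2. The 8 markers lay between -0.14 and 0.18, with a median of 0.03. Lag3 differed by 0.02 (95% interval -0.19 to 0.23).

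**Figure D3:**
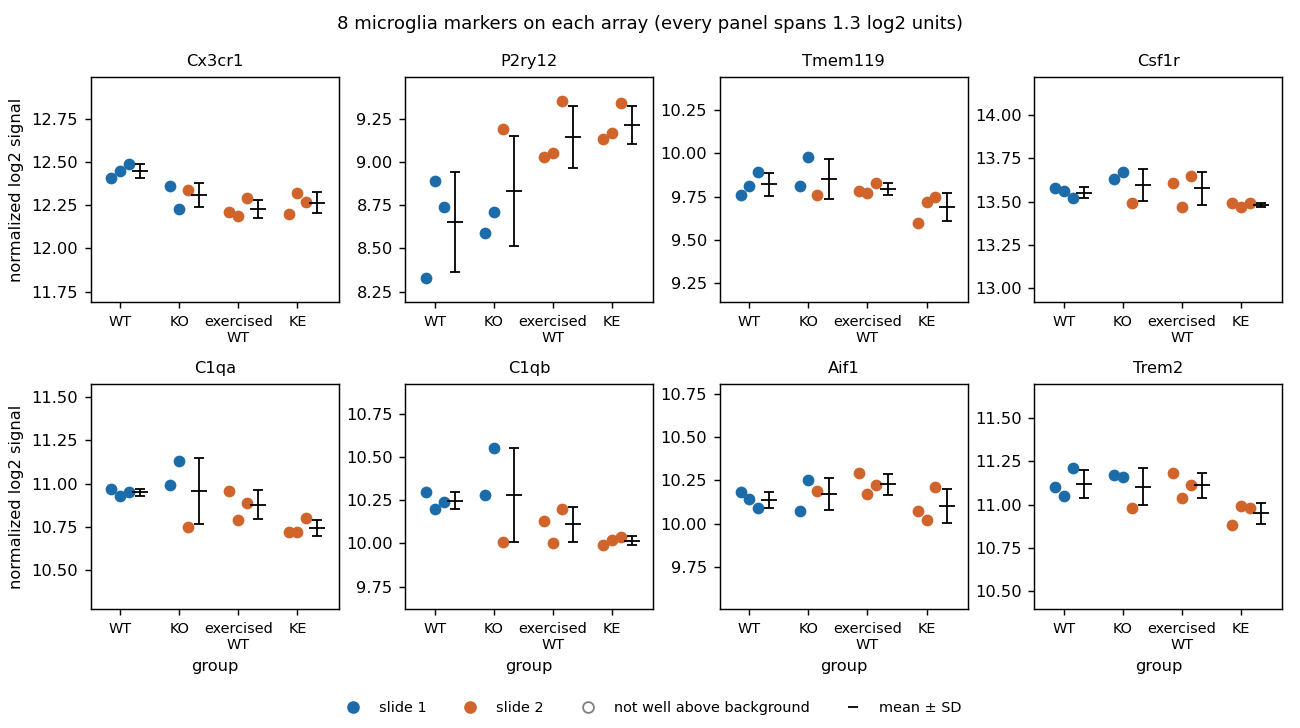
Normalized log2 signal (y axis) of the 8 microglia markers on each of the 12 arrays, by group (x axis), with colour for the slide and bars for the mean ± SD of 3 arrays, where every panel spans the same range. KO replicate 3, the KO array on slide 2, lies apart from the other KO arrays for P2ry12 (9.19), C1qa (10.75) and C1qb (10.01).

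In wild-type mice, swimmers and non-swimmers lay on different slides throughout. The comparison of exercised WT with WT gave 0 of 10 members at an adjusted p under 0.05 (background 0%), 1 past the screening criterion, Ccr2 (background 2.19%), and 3 at an unadjusted p under 0.05, namely Cx3cr1, P2ry12 and Ccr2 (background 25.9%). The same 3 were those whose groups did not overlap (background 37.6%). Ccr2 was tested only through exercised WT, as described above, so its part in each of these counts is a description. Cx3cr1 read 12.21, 12.19 and 12.29 in exercised WT, all below the 3 WT arrays, and its mean was 0.22 lower (SE 0.06, adjusted p = 0.0933). With slide as a block the difference was -0.26 (adjusted p = 0.796). The dimmer Cx3cr1 probe was 0.07 lower (adjusted p = 0.561) and overlapped. P2ry12 read 9.03, 9.05 and 9.35 in exercised WT and 8.33, 8.89 and 8.74 in WT, a mean difference of 0.49 (adjusted p = 0.134). With slide as a block this became -0.04 (adjusted p = 0.984). P2ry12 averaged 8.65 on slide 1 and 9.18 on slide 2, and KO replicate 3 read 9.19 against 8.59 and 8.71 for the other KO arrays. The 2 Csf1r probes disagreed here. The brighter one differed by 0.02 and the dimmer one by 0.49 (adjusted p = 0.0968), and the latter became -0.10 with slide as a block. The correlation of these 2 probes over 12 arrays was -0.36. The median of the 8 markers was -0.02 against -0.04 for all tested probes, and became 0.14 with slide as a block.

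In knockout mice, 7 of the 8 markers had a lower mean in KE than in KO, and P2ry12 a higher one. Their median was -0.13, against -0.04 over all tested probes, and became -0.02 with slide as a block. KE versus KO gave 0 of 10 members at an adjusted p under 0.05 (background 0.0199%), 0 past the screening criterion (background 1.21%) and 4 at an unadjusted p under 0.05, all lower in KE, namely Tmem119, C1qa, C1qb and Lag3 (background 21.1% in either direction, 4566 of 7420 called probes being lower). Tmem119 differed by -0.16, or -0.07 with slide as a block. Leaving out 1 array moved the number of members called so between 1 and 7, with the 7 coming without KO replicate 3 (38.4% of all probes). For 3 of 10 the groups did not overlap, namely Tmem119, Csf1r and Lag3 (background 21.5%). The C1q genes encode chains of 1 complement protein and lie side by side, so their 60-base probes are shown, with one of the longest runs of letters that both share, 5 bases, in capitals.
C1qa probe: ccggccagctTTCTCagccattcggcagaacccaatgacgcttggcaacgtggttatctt
C1qb probe: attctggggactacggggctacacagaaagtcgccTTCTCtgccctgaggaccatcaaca
In mm9 they lie on the minus strand at chr4:136452409-136452468 and chr4:136436578-136436637. C1qa read 10.99, 11.13 and 10.75 in KO and 10.72, 10.72 and 10.80 in KE, a mean difference of -0.21 (SE 0.09, adjusted p = 0.221). C1qb read 10.28, 10.55 and 10.01 in KO and 9.99, 10.02 and 10.04 in KE, a mean difference of -0.27 (SE 0.11, adjusted p = 0.224). In both genes the KO array on slide 2 read like the KE arrays. With slide as a block, which sets KE against that array, both differences were 0.00 (adjusted p = 0.997 for C1qa and adjusted p = 0.998 for C1qb). C1qc, the gene of the remaining chain, lies between them and was 0.06 lower in KE (adjusted p = 0.605).

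Lag3 kept a lower mean in KE under the block, at -0.24, with an adjusted p = 0.619. With that block 0 of 10 members had an unadjusted p under 0.05 (background 9.06% in that fit). Without KO replicate 3 the comparison becomes one of slide 2 with slide 1, and slide and swimming cannot be told apart in it. There 5 of 10 members passed at an adjusted p under 0.05 (P2ry12, C1qa, C1qb, Trem2 and Lag3), beside 8589 probes or 24.4% of the array.

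**Figure D4:**
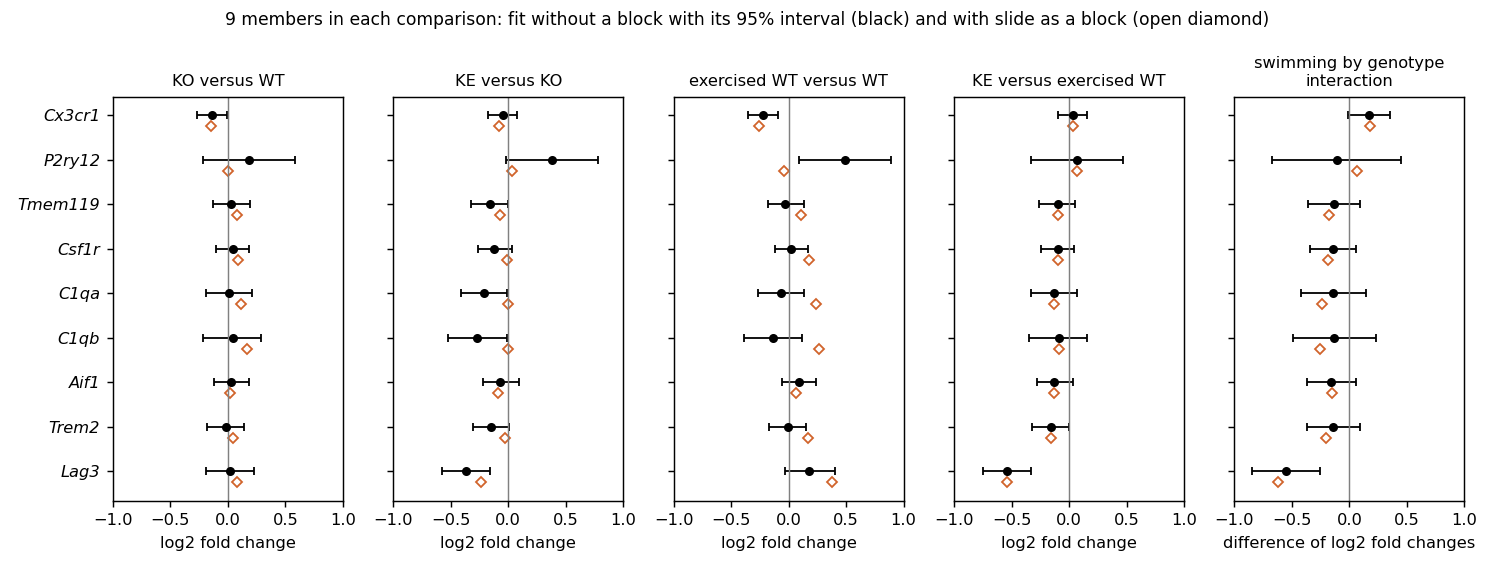
Log2 fold change (x axis, linear) of 9 members in 4 comparisons and of the difference between the swimming effects in the interaction, with black points and bars for the fit without a block and its 95% interval and open diamonds for the fit with slide as a block. Lag3 stands at -0.54 in KE versus exercised WT. Both fits must give every gene the same value there, as all these arrays share a slide. In KE versus KO, P2ry12, C1qa and C1qb move toward 0 with the block.

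The mean of the 8 markers on each array, after subtracting every probe's own mean, ran from -0.102 (KE replicate 1) to 0.1 (KO replicate 2). By group it was 0.005 ± 0.032 in WT and 0.026 ± 0.065 in KO, and after swimming 0.022 ± 0.067 in exercised WT and -0.054 ± 0.050 in KE (SD, n = 3). The KE arrays ran from -0.102 to -0.001 and overlapped those of every other group. Among 18256 genes outside the members, those whose pattern over the 12 arrays was most like this mean were Slc25a13 (r = 0.900), C1qc (0.900), Cd86 (0.896), Ly86 (0.894) and Hipk1 (0.894). Most like Lag3 were Sat1 (0.937), Nron (0.910), Prkar1a (0.910), Ccnk (0.900) and Ppp1r3fos (0.891), and most like Ccr2 were Lamp2 (0.953), P2ry14 (0.872), Capn2 (0.866), Gm16118 (0.864) and Gga3 (0.861). These correlations are descriptions over 12 arrays that share slides and groups. The Ccr2 probe was well above background on only 3 of the 12, so its ranking follows mostly values under background.

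Markers of the other cells of the region showed the tissue and its composition. All 12 hypothalamic genes on the list were tested, and Oxt, Hcrt and Pmch, the genes of oxytocin, orexin and melanin-concentrating hormone, were the brightest. In KE versus exercised WT, 0 of 12 hypothalamic, 0 of 10 neuronal, 0 of 8 astrocyte and 0 of 8 oligodendrocyte genes had an unadjusted p under 0.05, with list medians of 0.05, -0.04, -0.02 and 0.04. Of 8 genes of endothelium and pericytes 1 had, the transporter gene Slco1a4, named after its value was seen, at 0.19 higher in KE (adjusted p = 0.743), and the list's median was 0.01. Choroid plexus and ependyma had 0 of 6 with a median of -0.16, and Ttr, which encodes transthyretin, differed most there, by -1.57 (adjusted p = 0.796). Red blood cell genes had 0 of 7 with a median of -0.01, and B and plasma cell genes 0 of 2 with a median of -0.16. Among 7 tested genes of cortex, hippocampus and striatum, Adora2a and Drd1, both abundant in striatum, were lower in KE than in exercised WT by 1.33 (adjusted p = 0.71) and 0.71 (adjusted p = 0.724), and the list's median was -0.52. One exercised WT array stood apart, as the summed linear signal of the list was 9942 on replicate 3 against 4500 and 5337 on the other exercised WT arrays and 4390 to 5084 in KE. Their part in the Lag3 difference was not tested.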

How the data were processed

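RNA was labelled with Cy3 and scanned, and Agilent Feature Extraction 10.7.1.1 gave the intensity of each spot (background-subtracted processed signal, mm9 annotation, per the file headers). The authors then quantile-normalized the values, and the deposited table of log2 values, read here for symbols, sequences and 1 alternative, carries raw intensities that matched the scanner files within 0.01 on the log2 scale for 56513 to 56588 of 56605 probes per array. The 4 deposited comparison tables, which hold the authors' fold changes and p-values, and their 24 per-sample columns were not used. The members and gene lists were chosen with earlier results of these data known.

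Processed signals were quantile-normalized on the log2 scale, outlier spots were left out and spots of a probe were averaged. Of 56605 probes, 35230 were read well above background by every array of some group, and these were tested with limma 3.58.1 in R 4.3.3, in a model of 4 group means over 12 arrays, with Benjamini-Hochberg adjustment over all of them. A gene was read by its probe with the highest mean signal. From each of 18 lists the 3 brightest tested genes and those past the screening criterion were to be named, and others were chosen after their values were seen. For a probe under background in a group, folds are bounds against a limit set on each array, the lowest signal called well above background there or the probe's value where that is higher, averaged over the group. With 200 probes changed by 2 on the log2 scale in simulated data, the fit recovered 174 to 191 of them by comparison. The simulated noise was independent between arrays with no slide effect, and the changes were larger than any member's difference. The recovery therefore does not measure how well differences of the members' size would be found. Precision is limited by the number of arrays. Alternatives were the scaling, background correction, detection filter, outlier spots, probe averaging, the methods' t-test, slide and replicate blocks, and leaving out each array. The result of 1 gene list is not reported here.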

Additional observations from a re-analysis of the deposited data

Results flagged for a closer look

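The differences in Lag3 with swimming had opposite signs in the genotypes, though neither passed at an adjusted p under 0.05. Lag3 was 0.37 lower in KE than in KO (limma adjusted p = 0.14), and its difference between exercised WT and WT was 0.18 (95% interval -0.03 to 0.40, limma adjusted p = 0.241), with overlapping arrays. All 3 KE arrays read below the KO mean and all 3 exercised WT arrays above the WT mean, and the interaction was -0.55 on the log2 scale (limma adjusted p = 0.477).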

How the results depend on the processing

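With slide as a block, 3 differences turned: P2ry12 in exercised WT versus WT (-0.04), the dimmer Csf1r probe in exercised WT versus WT (-0.10) and C1qb in KE versus KO (0.00). Of 320 values for differences with an unadjusted p under 0.05, 311 kept their direction and stayed above the adjusted threshold. The 6 that came under it did so without KO replicate 3. Lag3 in KE versus exercised WT ran from -0.58 without exercised WT replicate 2 to -0.34 with normexp, and its interaction from -0.64 without WT replicate 1 to -0.33 with normexp. Averaging the probes of a gene is left out of these ranges, since it draws in the dimmer Lag3 probe, which lay under background on all KE arrays. The adjusted p ran from 0.21 to 0.785 and from 0.277 to 0.806.

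Numbers of the 10 genes with an unadjusted p under 0.05 moved as follows, with the share of all tested probes called in brackets. With 75th percentile scaling there were 0 in KO versus WT (5.68%) and 7 in KE versus KO (21.4%), with 2 in KE versus exercised WT (6.49%). With normexp background correction there were 2 in KE versus exercised WT (8.77%) and 2 in the interaction (9.84%). The methods' t-test gave 1 in KE versus KO (12.7%) and 1 between exercised WT and WT (26.1%), with 3 in KE versus exercised WT (10.8%) and 2 in the interaction (8.08%), where it was an unmoderated fit. The slide block gave 0 in KE versus KO (9.06%), 2 in KE versus exercised WT (10.3%) and 4 in the interaction (10.9%). Averaging the probes of a gene gave 5 between exercised WT and WT (24.6%), 2 in KE versus exercised WT (7.12%) and 2 in the interaction (8.04%). By the 2-fold screening criterion, the comparison of exercised WT with WT held 0 genes with normexp (0.738%) and with detection asked for on all 12 arrays, which drops Ccr2 (1.37%). It also held 0 with the methods' t-test (2.07%) and with the slide block (0.792%). KE versus exercised WT held 1 with the methods' t-test (0.145%), Ccr2, under background on all KE arrays. The median of the 8 markers became, with the slide block, -0.02 in KE versus KO and 0.14 between exercised WT and WT, and with normexp -0.04 in KE versus exercised WT, -0.04 in the interaction and -0.09 between exercised WT and WT. The causes were not tested.

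Leaving out each array in turn gave, at an unadjusted p under 0.05, 0 to 1 genes in KO versus WT (0 without WT replicate 2, WT replicate 3 or KO replicate 2, where 4.89% to 8.46% of all probes were called), 1 to 7 in KE versus KO, 1 to 3 between exercised WT and WT, 1 to 3 in KE versus exercised WT and 1 to 4 in the interaction. In KE versus KO the 7 came without KO replicate 3 (38.4% of all probes) and the 1 without WT replicate 2 or 3, KO replicate 1 or 2, or KE replicate 1 or 2 (10.9% to 20.0%). The 1 between exercised WT and WT came without exercised WT replicate 3 (21.6%), the 3 in KE versus exercised WT without exercised WT replicate 2 (5.42%) or KE replicate 3 (5.52%), and the 4 in the interaction without KO replicate 3 (10.9%). In all 12 of these fits Lag3 was among those called in KE versus KO, KE versus exercised WT and the interaction. At an adjusted p under 0.05 there were 0 to 5 in KE versus KO and 0 to 2 between exercised WT and WT. The highest numbers came without KO replicate 3, where 24.4% and 18% of all probes passed in these comparisons. Past the screening criterion there were 0 to 1 in exercised WT versus WT (0 without WT replicate 3, exercised WT replicate 1 or exercised WT replicate 3), 0 to 1 in KE versus exercised WT and 0 to 1 in the interaction. The marker median in KO versus WT ran from -0.04 to 0.06.

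Samples with the same replicate number in different groups did not deviate together, with correlations from -0.19 to 0.245 over 18 pairs, 4 of them over 0.1, so the numbers do not pair the samples. With the replicate number as a block, 2 genes had an unadjusted p under 0.05 in KE versus KO (20.9% of all probes). There 0 passed the screening criterion between exercised WT and WT (2.18%). Depth is limited for Ccr2 and the dimmer Lag3 probe, under background on 9 and 8 arrays.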
